A study of Mus musculus with 6 samples.

Results

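The proteasome genes of mouse blood progenitors were compared between cells with LIN28B and MLL-ENL and cells with MLL-ENL alone. Members were the protein-coding entries of the deposited table whose gene symbol begins with Psm, followed by a letter from a to g and a digit. They were 50 genes of 55471 gene IDs in the table, and 47 of them had enough signal to be tested. The rule used no measured value. The L28BME group has the labelled genotype LIN28B*MLL-ENL and the ME group the genotype MLL-ENL, with 3 libraries each. Both groups hold GMLPs, a progenitor population taken from bone marrow by sorting on lineage markers, Kit, Sca1, CD48 and CD150. Cells of both groups were kept in culture with DOX (doxycycline) for 3 days before RNA was taken, so MLL-ENL and DOX are common to all 6 libraries. MLL-ENL is a leukaemia fusion oncogene, and LIN28B is an RNA-binding protein of fetal blood progenitors. The labels give neither the age of the mice nor the promoters of the transgenes, and they do not say whether the 3 libraries of a group came from separate animals. The p-values below therefore measure the spread between these libraries, which may be technical.

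The proteasome is the main protease of the cytosol and nucleus and degrades proteins that carry ubiquitin chains. Its barrel, the 20S core, has outer rings of alpha subunits (Psma genes) and inner rings of beta subunits (Psmb genes), of which Psmb5, Psmb6 and Psmb7 encode the proteolytic ones. The 19S cap (Psmc and Psmd genes) binds ubiquitinated proteins, removes the ubiquitin, and unfolds and threads the protein into the core. In cells of the immune system, and elsewhere after interferon gamma, Psmb8, Psmb9 and Psmb10 encode subunits that take the places of Psmb5, Psmb6 and Psmb7. The resulting immunoproteasome is known for its part in making peptides for MHC class I, and blood cells commonly express it without stimulation.

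The values are TPM (a transcript level per length, scaled to the same sum in each library) as the authors deposited them. TPM are not counts, and the sequencing depth behind them is unknown, so no counting error is given. Each library had between 13215 and 13288 genes at 1 TPM or more. The mouse Lin28b gene, which names the difference between the groups, was listed at 11.2, 11.7 and 11.9 TPM in L28BME cells, against 0, 0 and 0 TPM in ME cells. The sort markers Kit, at 73.2 to 88.4 TPM in L28BME cells and 76.5 to 106 TPM in ME cells, and Cd48, at 226 to 231 TPM in L28BME cells and 291 to 302 TPM in ME cells, were present. Slamf1, which encodes CD150, was below 1 TPM in every library. Ly6a, which encodes the Sca1 antigen, was at 3.18, 1.38 and 1.65 TPM in L28BME cells, against 10.3, 11.8 and 9.64 TPM in ME cells, so the cultured cells showed little RNA of that sort marker. Other cell type markers moved with the groups, beside all the proteasome results below. All 4 megakaryocyte markers rose in L28BME cells and summed to 121 to 138 TPM there, against 79.6 to 83.5 TPM in ME cells (Pf4 at 46.8, 51.5 and 58.9 TPM in L28BME cells, against 18.98, 17.97 and 20.98 TPM in ME cells). Of 5 immature myeloid markers, Ms4a3, Ctsg, Cd34 and Mpo fell and Flt3 rose, and their sum was 6418 to 7148 TPM in L28BME cells, against 8793 to 8954 TPM in ME cells. Of 12 macrophage and dendritic cell markers, 2 rose (Flt3 and Csf1r), 6 fell (H2-Aa, H2-Eb1, Cd68, H2-Ab1, Itgax and Cd74), and Batf3 and Xcr1 were below 1 TPM throughout. With Flt3, which is also on the immature list, their sum was 354 to 367 TPM in L28BME libraries, against 347 to 373 TPM in ME libraries. Without Flt3 it was 167 to 179 TPM in L28BME libraries, against 251 to 273 TPM in ME libraries. Of 5 B cell markers Cd79b rose, at 54.5, 59.2 and 56.8 TPM in L28BME cells, against 26.7, 27.99 and 26.98 TPM in ME cells, and the other 4 were below 1 TPM in every library. None of 5 erythroid markers was called (summed at 16.9 to 28.4 TPM in L28BME cells, against 8.44 to 17.1 TPM in ME cells). Of 5 stromal and endothelial markers Pecam1 fell, and their sum was 113 to 118 TPM in L28BME cells, against 164 to 165 TPM in ME cells. Nearly all of that sum was Pecam1, at 110 to 115 TPM in L28BME cells and 162 to 163 TPM in ME cells. Vwf went the other way without overlap, at 2.25 to 2.66 TPM against 1.46 to 1.79 TPM, and was not called. Cdh5, Col1a1 and Col1a2 were below 1 TPM in every library. All 6 T and NK cell markers were below 1 TPM in every library. The part of cell makeup in the proteasome results was not tested.

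Proteasome RNA was abundant and close to level between the groups. The 50 genes together made up 1.016, 1.0004 and 0.996% of all TPM in the L28BME libraries, against 0.992, 1.037 and 1.037% in the ME libraries, so these shares overlapped. The sum was 10041 ± 106 TPM in L28BME cells and 10221 ± 258 TPM in ME cells (SD, n = 3 each). At 100 TPM or more in every library stood 35 of the 50 genes. In bulk RNA such as this, fewer cells of a type and less RNA per cell cannot be told apart.

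With limma on log2(TPM + 1), adjusted by the Benjamini-Hochberg method over all 13348 genes tested, 0 of the 47 tested proteasome genes were called higher and 3 were called lower in L28BME cells at an adjusted p under 0.05. The genes called lower were Psmd2, Psmb3 and Psme4. Across all genes, 8.28% were called higher, 6.60% lower and 14.9% in either direction, against 6.38% of the tested proteasome genes. At an unadjusted p under 0.05, 1 proteasome gene was higher and 7 were lower, beside 16.0% and 13.7% of all genes. All 3 L28BME libraries stood above all 3 ME libraries for 1 tested proteasome gene (Psme3), where 19.4% of all genes did. They stood below for 7 (Psmd1, Psmd2, Psmd6, Psmd7, Psmg2, Psmb3 and Psme4), where 17.4% of all genes did. These shares are near or under those of all genes in each direction. The count of genes called lower was 0 without the variance trend or without ME replicate 2 or 3, 1 with no filter on low values or without L28BME replicate 2, L28BME replicate 3 or ME replicate 1, and 2 without L28BME replicate 1.

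**Figure D1:**
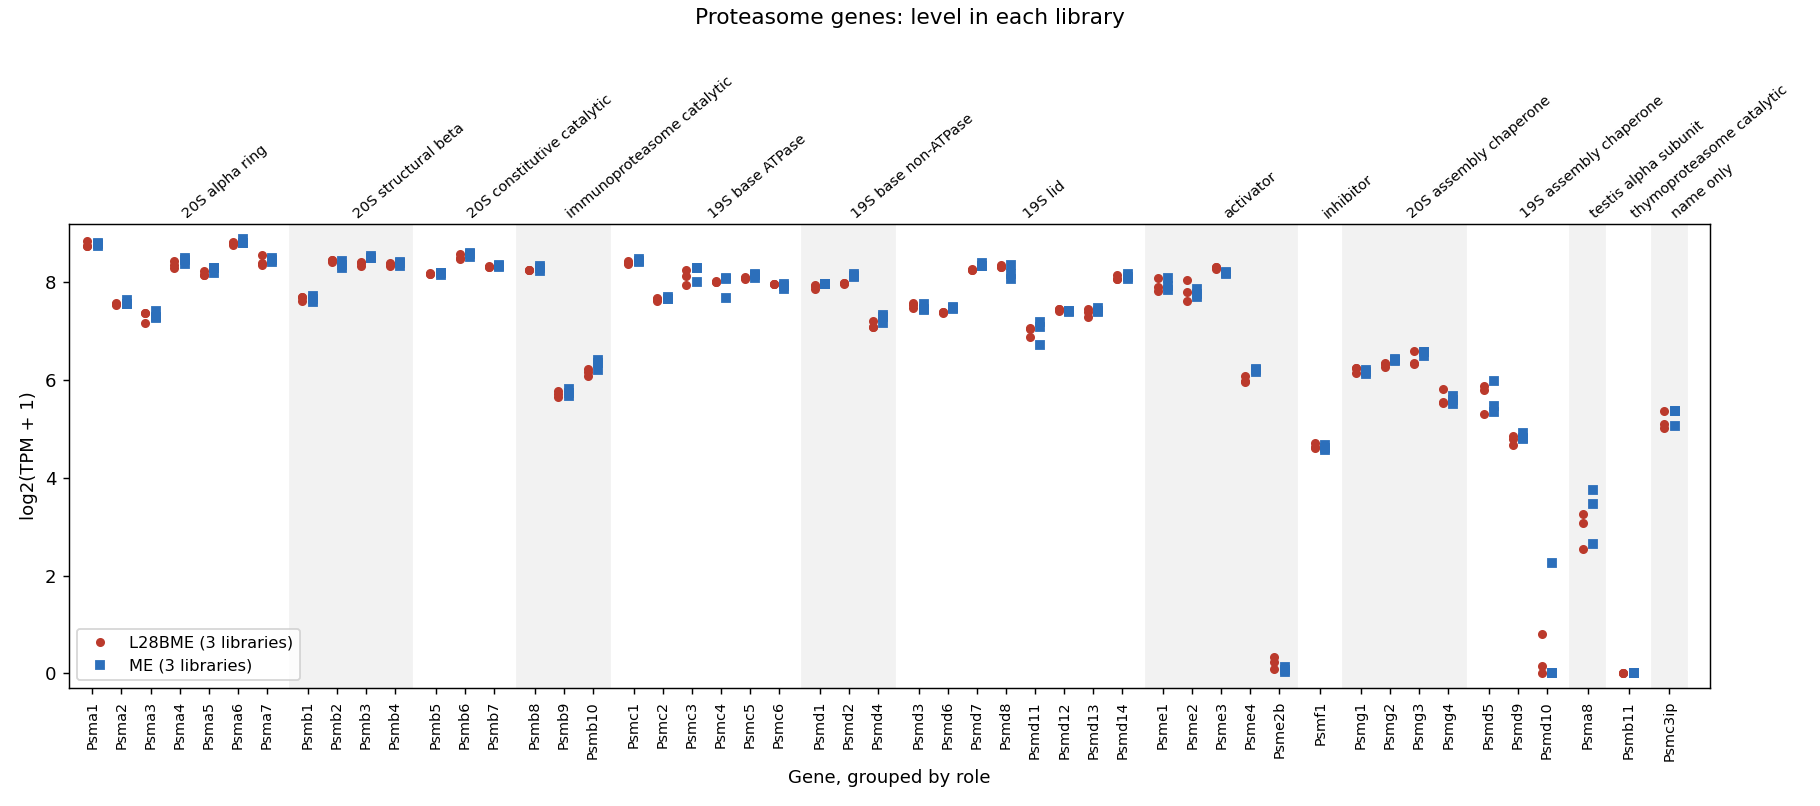
Level of each of the 50 proteasome genes in each library on the log2(TPM + 1) axis, genes grouped by role along the horizontal axis, with circles for the 3 L28BME libraries and squares for the 3 ME libraries. The alpha ring, the constitutive beta subunits and the 19S subunits form a high band, with Psmb9, Psmb10 and Psme4 below it and Psmd10, Psmb11 and Psme2b listed at or near 0.

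The differences were small and their errors narrow. The log2 fold change (L28BME over ME, on the log2(TPM + 1) scale) was negative for 31 of the 47 genes (66%), against 49.4% of all genes tested, and for 28 to 34 of the 47 under 3 other scalings of the libraries. Its median was -0.03 for the proteasome genes and 0.0033 for all genes. The median size without sign was 0.053 for the proteasome genes and 0.14 for all genes, while 2018 genes with a mean of at least 100 TPM, a level closer to that of most proteasome genes, had a median size of 0.096. Of those 2018 genes, 21.6% were called in either direction. Of the 35 proteasome genes at that level, 0 were called higher and 2 lower. The median standard error was 0.044 for the proteasome genes, also 0.044 for the genes of at least 100 TPM, and 0.091 for all genes. The 95% interval of the fold change lay within 1.2-fold in either direction for 36 of 47 proteasome genes (76.6%), against 3818 genes (28.6%) of all tested. That share was not taken for the genes of at least 100 TPM, whose errors were closer to those of proteasome genes. The 11 proteasome genes whose interval reached past 1.2-fold were Psmd5, Psmc3, Psmc4, Psmd11, Psmd8, Psmg3, Psme2, Psme4, Psmb10, Psmc3ip and Psma8.

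**Figure D2:**
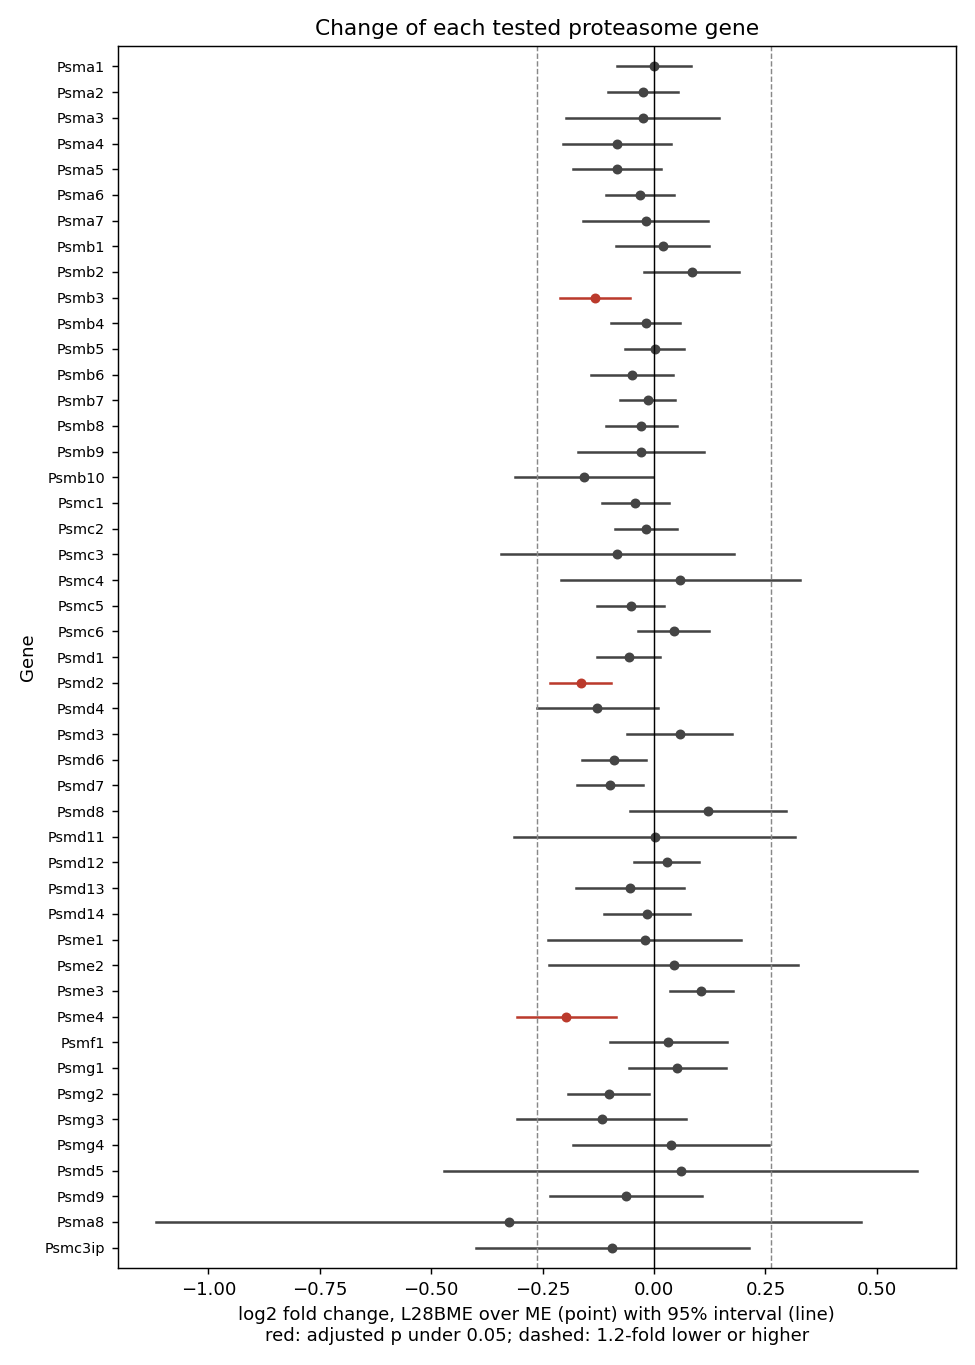
Log2 fold change, L28BME over ME, of each of the 47 tested proteasome genes (point) with its 95% interval (line), in red where the adjusted p is under 0.05, and dashed lines at 1.2-fold. Points crowd around 0, with Psmd2 at -0.16, Psmb3 at -0.13 and Psme4 at -0.20 in red, and the widest interval belongs to Psma8.

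The 3 pairs of catalytic subunits gave the direct comparison of immunoproteasome with constitutive core. None of the 6 genes was called by limma, and at an unadjusted p under 0.05 only Psmb10 was lower. In both groups Psmb8 stood at the level of its counterpart Psmb5, whereas Psmb9 stood far below Psmb6, and Psmb10 far below Psmb7. The 3 immunoproteasome genes summed to 425, 424 and 432 TPM in L28BME cells, against 433, 445 and 452 TPM in ME cells. The constitutive 3 summed to 968, 970.4 and 986 TPM in L28BME cells, against 967, 1002 and 1002 TPM in ME cells.

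Psmb8 (beta 5i, the chymotrypsin-like subunit of the immunoproteasome) lies at chr17:34197721-34201454 of GRCm38 on the plus strand. Its level was 306, 304 and 305 TPM in L28BME cells, against 300.03, 322 and 312 TPM in ME cells. The groups overlapped, with L28BME libraries within the ME range (log2 fold change -0.03, SE 0.0328, adjusted p = 0.614). The 95% interval of its fold was 0.927 to 1.04. Psmb5, the constitutive chymotrypsin-like subunit (chr14:54614119-54618022, minus strand), was at 287, 293 and 288 TPM in L28BME cells, against 283, 291 and 293 TPM in ME cells. These groups overlapped as well, and the interval of the fold was 0.956 to 1.05 (adjusted p = 0.979). Of the TPM of this pair, Psmb8 held 51.3 ± 0.32% in L28BME cells and 51.8 ± 0.55% in ME cells (SD, n = 3 each).

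Psmb9 (beta 1i, chr17:34181987-34187764, minus strand), which replaces the caspase-like subunit, was at 51.99, 49.3 and 54.04 TPM in L28BME cells, against 52.8, 50.04 and 55.8 TPM in ME cells. The ranges of the groups overlapped over most of their length (log2 fold change -0.03, SE 0.0579, adjusted p = 0.78), and the interval of the fold was 0.889 to 1.08. Psmb6 (beta 1, chr11:70525367-70527858, plus strand) was at 360.3, 357 and 381 TPM in L28BME cells, against 367, 384 and 386 TPM in ME cells, with overlap between the groups (adjusted p = 0.442). Psmb9 held 12.4 ± 0.24% of the TPM of this pair in L28BME cells and 12.2 ± 0.63% in ME cells.

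Psmb10 (beta 2i, chr8:105935735-105938444, minus strand), which replaces the trypsin-like subunit, was at 67.3, 71.2 and 73.6 TPM in L28BME cells, against 80.2, 73.1 and 83.8 TPM in ME cells. Only the highest L28BME library reached past the lowest ME library, and the gene did not pass the test (log2 fold change -0.16, SE 0.0632, adjusted p = 0.162, interval of the fold 0.806 to 0.998). Psmb7 (beta 2, chr2:38588036-38644087, minus strand) was at 320.1, 321 and 316 TPM in L28BME cells, against 317, 326 and 324 TPM in ME cells, again with overlap (adjusted p = 0.747). Psmb10 held 18.1 ± 0.75% of the TPM of this pair in L28BME cells and 19.7 ± 1.22% in ME cells.

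The ratio within each pair was compared by a two-sided exact permutation test over the 6 libraries, which cannot give a p below 0.1 with 3 against 3. The difference in the log2 ratio of a pair, L28BME minus ME, was -0.03 for Psmb8 to Psmb5 (exact p = 0.2), 0.02 for Psmb9 to Psmb6 (exact p = 0.9) and -0.14 for Psmb10 to Psmb7 (exact p = 0.2). Adjusted over the 3 pairs these became 0.3, 0.9 and 0.3. The Psmb9 to Psmb6 difference turned to -0.03 without ME replicate 2. Taken over all 6 genes, the immunoproteasome share of catalytic TPM was 30.5, 30.4 and 30.5% in L28BME libraries, against 30.9, 30.7 and 31.1% in ME libraries, and no test was run on it. Without overlap, the groups differed by 0.43 percentage points.

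**Figure D3:**
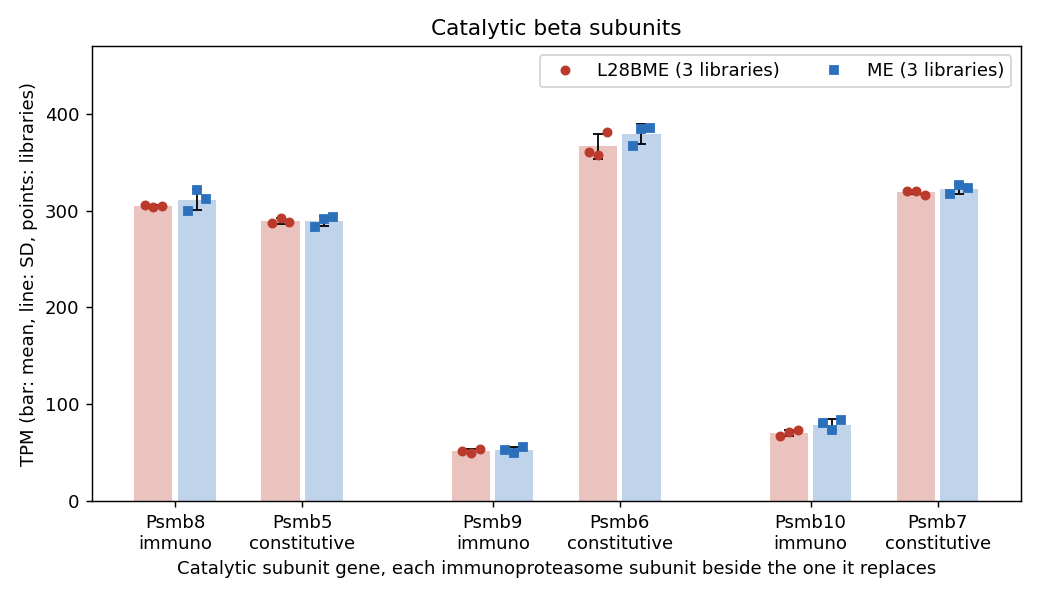
TPM of the 6 catalytic beta subunit genes, each immunoproteasome gene beside the constitutive gene it replaces, with bars for the mean, lines for the SD and points for the 3 libraries of each group, L28BME left of ME. Psmb8 and Psmb5 stand at a like height near 300 TPM, while Psmb9 and Psmb10 stay below 90 TPM beside Psmb6 and Psmb7 above 310 TPM, in both groups.

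The DNA just before these genes is shown so that the upstream motifs of immunoproteasome and constitutive subunits can be set side by side. Psmb7 had no matched RefSeq window, so the constitutive side holds only Psmb5 and Psmb6. Sequences are from RefSeq for GRCm38, written 5′ to 3′ on the strand of the gene named, as the 150 bases before the RefSeq start, which can lie inside the longest GENCODE model. For Psmb9 the whole interval of 225 bases to Tap1, whose RefSeq start faces away from it, is given on the plus strand. Capitals mark matches on either strand to TGACNNNGC (the core of an antioxidant response element, the site of NRF factors), CCAAT (the CCAAT box), GGGCGG (the GC box) or the interferon-stimulated response element (ISRE, searched as GAAA, any 2 bases, then GAAA).
Psmb9 and Tap1, chr17:34187331-34187555, plus strand: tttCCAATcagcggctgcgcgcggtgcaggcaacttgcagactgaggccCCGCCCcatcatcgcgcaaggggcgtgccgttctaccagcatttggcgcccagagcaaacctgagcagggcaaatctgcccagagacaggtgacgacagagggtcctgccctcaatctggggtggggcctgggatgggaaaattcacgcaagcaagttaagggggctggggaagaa
Psmb8, chr17:34198045-34198194, plus strand: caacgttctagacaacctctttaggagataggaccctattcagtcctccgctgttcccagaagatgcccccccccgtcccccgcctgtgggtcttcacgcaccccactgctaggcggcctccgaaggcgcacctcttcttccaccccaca
Psmb10, chr8:105938393-105938542, minus strand: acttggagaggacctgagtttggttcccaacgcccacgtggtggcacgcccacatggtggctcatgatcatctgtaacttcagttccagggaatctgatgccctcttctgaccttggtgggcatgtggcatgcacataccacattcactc
Psmb5, chr14:54617996-54618145, minus strand: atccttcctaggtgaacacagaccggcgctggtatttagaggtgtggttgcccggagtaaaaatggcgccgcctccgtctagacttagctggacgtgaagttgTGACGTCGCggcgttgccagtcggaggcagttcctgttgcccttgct
Psmb6, chr11:70525207-70525356, plus strand: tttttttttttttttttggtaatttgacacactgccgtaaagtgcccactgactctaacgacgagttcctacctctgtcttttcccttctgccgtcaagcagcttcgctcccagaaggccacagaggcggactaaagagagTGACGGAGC
The antioxidant response core was found upstream of Psmb5, starting 47 bases before the start, and of Psmb6, starting 9 bases before it. The interval of Psmb9 and Tap1 held a CCAAT box and a GC box. The printed windows of Psmb8 and Psmb10 held none of the motifs searched. The Psmb8 window and the interval of Psmb9 and Tap1 lie wholly inside the GENCODE models of Psmb8 and Psmb9. DNA upstream of those 2 models was therefore not searched.

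Across proteasome genes, RefSeq windows from 250 bases before to 50 after the start were matched for 42 of the 50. The antioxidant response core occurred in 6 of them (14.3%; Psmb5, Psmb6, Psmc6, Psmd12, Psmd9 and Psme4), against 3781 (14%) of all 27025 genes with a window. The ISRE occurred in 5 (11.9%; Psmb3, Psmd4, Psmd9, Psme1 and Psmg4), against 3.99% of all genes, and in none of the windows of Psmb8, Psmb9 and Psmb10. For Psmb8 and Psmb9 these windows too lie inside the GENCODE models. The same holds for Psmd9 and Psme1, so their matches above are not upstream of those models. The CCAAT box occurred in 15 (35.7%, against 41.1% of all genes) and the GC box in 23 (54.8%, against 38.2%). A match is a description of letters, not a binding site, and these letters can be held by other sites.

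The 7 alpha subunits, which form the outer rings and the gate, summed to 2237, 2208 and 2143 TPM in L28BME cells, against 2187, 2281 and 2288 TPM in ME cells. None of them was called, and their log2 fold changes ran between -0.08 and 0.0001. Psma6 was the highest proteasome gene by mean in both groups, at 454, 448 and 437 TPM in L28BME cells, against 449, 471 and 448 TPM in ME cells. Psma1 was at 457, 431 and 432 TPM in L28BME cells, against 429.8, 443 and 447 TPM in ME cells, with a log2 fold change of 0.0001. The L28BME mean was 188 TPM for Psma2, 328 TPM for Psma4, 289 TPM for Psma5 and 346 TPM for Psma7, against ME means of 191, 348, 306 and 350.4 TPM. The group ranges overlapped for each of these genes. Psma3 is taken up with its copies below.

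Of the 4 beta subunits without proteolytic activity, Psmb3 (beta 3, chr11:97703399-97713500, plus strand) fell in L28BME cells. It was at 343, 323 and 338 TPM in L28BME cells, against 363, 373 and 363 TPM in ME cells, so every L28BME library stood below every ME library. It averaged 334 ± 10.2 TPM in L28BME cells and 366 ± 5.32 TPM in ME cells (SD, n = 3 each; log2 fold change -0.13, SE 0.0322, adjusted p = 0.044; interval of the fold 0.864 to 0.964). The call was lost when any 1 library was left out, with adjusted p between 0.0696 and 0.132. Psmb2 (beta 4) had a positive log2 fold change of 0.08 at 339.8, 353 and 353 TPM in L28BME cells, against 326, 347 and 314 TPM in ME cells, which overlapped (adjusted p = 0.257). Psmb1 (beta 6) was at 208, 197 and 209 TPM in L28BME cells, against 193, 203 and 209.9 TPM in ME cells, and Psmb4 (beta 7) at 336, 330.05 and 325 TPM in L28BME cells, against 324, 338 and 342 TPM in ME cells. Both overlapped between groups.

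The base of the 19S cap holds 6 ATPases, Psmc1 to Psmc6, which unfold the substrate, and large scaffold subunits that receive ubiquitin-carrying cargo. None of the ATPases was called, and they summed to 1572, 1622 and 1591 TPM in L28BME cells, against 1527, 1683 and 1644 TPM in ME cells. Psmc3 was at 246, 304 and 281 TPM in L28BME cells, against 257, 313 and 312 TPM in ME cells, with the first replicate the lowest in each group. Psmc4 was at 255, 259.8 and 256 TPM in L28BME cells, against 205, 272 and 269 TPM in ME cells, where ME replicate 1 stood apart from the other libraries. Both had an interval of the fold wider than 1.2 in a direction (0.788 to 1.13 for Psmc3 and 0.865 to 1.25 for Psmc4). Means of Psmc1, Psmc2, Psmc5 and Psmc6 lay between 201 and 338 TPM in L28BME cells and between 203 and 348 TPM in ME cells, with each group's range overlapping the other's.

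Psmd2 (Rpn1, chr16:20651652-20663414, plus strand), the scaffold on which ubiquitin shuttle factors and the deubiquitinase Usp14 dock, fell in L28BME cells. Its level was 254, 252 and 248 TPM in L28BME cells, against 276, 281 and 287 TPM in ME cells, with no overlap. It averaged 251 ± 3.04 TPM in L28BME cells and 282 ± 5.49 TPM in ME cells (SD, n = 3 each; log2 fold change -0.16, SE 0.0281, adjusted p = 0.0148), a fold of 0.892 with an interval of 0.851 to 0.936. The call was lost without ME replicate 2 (adjusted p = 0.0553) or without ME replicate 3 (adjusted p = 0.0539), and held without each of the other libraries. Psmd1 (Rpn2), the other large scaffold, was at 244, 242 and 234 TPM in L28BME cells, against 251, 248 and 250.2 TPM in ME cells, without overlap, and did not pass the test (log2 fold change -0.06, adjusted p = 0.251). Psmd4 (Rpn10), a ubiquitin receptor, was at 148, 136 and 136 TPM in L28BME cells, against 143, 159 and 156 TPM in ME cells, with overlap (adjusted p = 0.192).

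The lid, whose subunit Psmd14 (Rpn11) cuts ubiquitin chains from the substrate, had 8 genes in the table and no call. Psmd14 itself was at 266, 269.7 and 284 TPM in L28BME cells, against 276, 268 and 286 TPM in ME cells. Psmd6 (Rpn7) was at 168, 168 and 164 TPM in L28BME cells, against 176, 181 and 175 TPM in ME cells, and Psmd7 (Rpn8), the partner of Psmd14, was at 309.7, 303 and 304 TPM in L28BME cells, against 322, 338 and 322 TPM in ME cells. Neither gene overlapped between groups and neither passed the test (adjusted p = 0.1 for Psmd6 and 0.0876 for Psmd7). Psmd8 (Rpn12) was at 325, 316 and 317 TPM in L28BME cells, against 269.8, 286 and 328 TPM in ME cells, and the spread of the ME libraries took in the L28BME values. Without ME replicate 3 it was called higher (adjusted p = 0.0452). Psmd11 (Rpn6) ranged from 104 to 146 TPM among ME libraries, wider than its L28BME range of 117 to 133 TPM. Psmd3, Psmd12 and Psmd13 had log2 fold changes of 0.06, 0.03 and -0.05.

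The activators, which bind the ends of the core in place of the 19S cap, held the largest of the 3 called changes. Psme4 (PA200, chr11:30771726-30880361, plus strand), a nuclear activator known for degrading acetylated histones, fell in L28BME cells. Its level was 66.8, 62.1 and 61.4 TPM in L28BME cells, against 71.2, 74.1 and 73.1 TPM in ME cells, without overlap. It averaged 63.4 ± 2.96 TPM in L28BME cells and 72.8 ± 1.47 TPM in ME cells (SD, n = 3 each; log2 fold change -0.20, SE 0.0457, adjusted p = 0.0384), with an interval of the fold of 0.808 to 0.943. The call held without L28BME replicate 1 (adjusted p = 0.0357) and was lost without any other single library, up to an adjusted p of 0.118. Psme3 (PA28 gamma), the other nuclear activator, was at 319, 319.5 and 307 TPM in L28BME cells, against 289, 292 and 298 TPM in ME cells. Each of its L28BME libraries stood above each ME library, and it did not pass the test (log2 fold change 0.11, adjusted p = 0.0634).

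The interferon-inducible activator PA28 is a ring of Psme1 and Psme2 products. Psme1 was at 272, 238 and 227 TPM in L28BME cells, against 231, 244 and 273 TPM in ME cells, and Psme2 at 266, 223 and 195 TPM in L28BME cells, against 207, 217 and 233 TPM in ME cells. Among L28BME libraries both genes were highest in replicate 1 and lowest in replicate 3, and among ME libraries both were highest in replicate 3 and lowest in replicate 1. The groups overlapped for both (adjusted p = 0.905 for Psme1 and 0.837 for Psme2). They lie near each other on chromosome 14 (55578123-55581529 on the plus strand for Psme1 and 55587441-55591113 on the minus strand for Psme2). Psmf1 (PI31), an inhibitor of the core in vitro, was at 23.9, 25.2 and 23.5 TPM in L28BME cells, against 22.9, 24.5 and 23.5 TPM in ME cells.

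Among the members, genes for assembly factors stood below the constitutive 20S subunits and the 19S subunits in TPM, in every library. The chaperones of the core, Psmg1 to Psmg4, summed to 288, 279.5 and 293 TPM in L28BME cells, against 294, 290.1 and 302 TPM in ME cells. Psmg2 did not overlap at 76.3, 79.5 and 80.3 TPM in L28BME cells, against 86.1, 82.8 and 84.8 TPM in ME cells, and did not pass the test (log2 fold change -0.10, adjusted p = 0.129). Psmd9 (p27), a chaperone of the 19S base, was at 24.5, 26.99 and 28.2 TPM in L28BME cells, against 27.4, 29.3 and 26.6 TPM in ME cells. Psmd5 (S5b), another one, varied most within groups among genes above 20 TPM, at 54.5, 38.7 and 58 TPM in L28BME cells, against 39.9, 62.7 and 43.1 TPM in ME cells. Psmd10 (gankyrin), the last of them, was listed at 0.752, 0.111 and 0 TPM in L28BME cells, against 0, 3.79 and 0 TPM in ME cells, and was not tested. Gankyrin is known to be widely expressed, and an exact 0 in a table without read counts can be a failed estimate, so these values do not show how much Psmd10 RNA the cells held.

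Subunits known from other tissues were low or listed at 0. Psmb11, the beta 5t subunit of cortical thymic epithelium, was listed at 0 in all 6 libraries. Psma8, the alpha subunit of testis, was at 7.46, 8.58 and 4.88 TPM in L28BME cells, against 5.27, 10.1 and 12.5 TPM in ME cells, with overlap (adjusted p = 0.558), while all 3 testis cell markers were below 1 TPM in every library. Psmc3ip, a partner of the meiotic recombinases that bears the family name without being a subunit, was at 33.3, 40.6 and 31.7 TPM in L28BME cells, against 32.3, 40.1 and 40.4 TPM in ME cells. Within groups, 26 of the 47 tested genes had a coefficient of variation under 5% in both groups, and 10 had one over 10% in a group.

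Reads of several subunits could have been shared with near-identical copies. By BLAST against GENCODE transcripts, 13 members had a sequence of at least 95% identity over at least 200 bases in a gene outside their own locus, and for 9 of them such a gene was at 1 TPM or more in a library. A further 7 matched only a gene whose model overlaps theirs. The processed pseudogene Gm13835 matched Psma3 at 100% over 685 bases. It was listed at 155, 165 and 172 TPM in L28BME cells, against 181, 179 and 169 TPM in ME cells. That is as high as Psma3 itself, at 164, 165 and 144 TPM in L28BME cells, against 153, 157 and 171 TPM in ME cells. Psma3 was then summed with its pseudogenes Gm13835, Gm4742 and Gm5406. The sums were 319, 330.4 and 316 TPM in L28BME cells, against 335, 336 and 341 TPM in ME cells. They did not overlap between groups, and limma did not call them (adjusted p = 0.176). The listed level of Psma3 is uncertain where the authors' counting could split such reads. The Psma5 copies Gm12989 and Gm8394 were at 54.2 to 56.2 TPM and 29.0 to 30.7 TPM in L28BME cells, against 59.5 to 60.0 TPM and 32.9 to 36.1 TPM in ME cells. Summed with its copies, Psmb3 was at 392, 374 and 390 TPM in L28BME cells, against 414, 427 and 422 TPM in ME cells, still without overlap. Psmd2 summed with Gm5422 was at 264, 259 and 248 TPM in L28BME cells, against 285, 289 and 295 TPM in ME cells, also without overlap. With all such pseudogenes summed into their members, Psmd2 (adjusted p = 0.0226), Psmb3 (0.0392) and Psme4 (0.0384) were still called by limma, and 0 others were. Psme2b, a copy of Psme2 at 99.4% over 794 bases, was listed at 0.26 TPM or less in every library and was not tested.

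**Figure D4:**
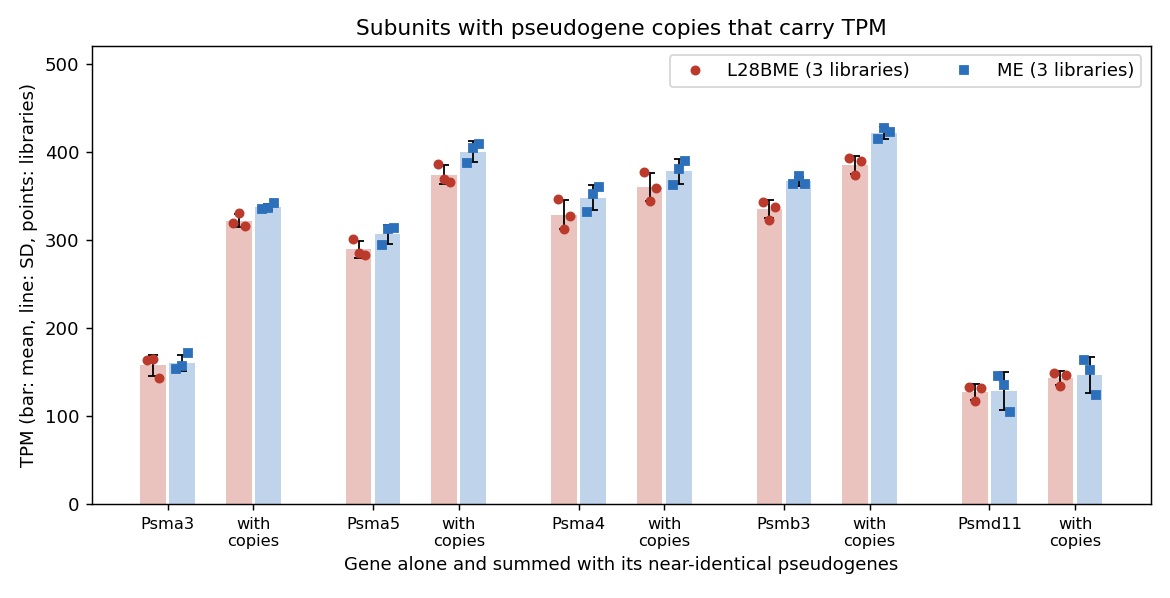
TPM of proteasome subunit genes alone and summed with pseudogenes of near-identical sequence, with bars for the mean, lines for the SD and points for the 3 libraries of each group, L28BME left of ME. Adding its pseudogenes, of which Gm13835 is by far the highest, brings Psma3 to between 316 and 341 TPM over the 6 libraries, while the other sums move less.

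Genes of the MHC class I pathway and of interferon signalling gave a neighbouring comparison. Of 21 listed, 20 were tested, 0 rose and 4 fell in L28BME cells with limma, and at an unadjusted p under 0.05 there were 6 lower and 0 higher. Over all genes, 8.28% were called higher and 6.60% lower, and 16.0% and 13.7% passed the unadjusted threshold. The median log2 fold change was -0.04, beside 0.0033 over all genes. Nlrc5, the transactivator of MHC class I genes, fell to 10.7, 9.86 and 11.7 TPM in L28BME cells, against 15.6, 17.4 and 16.7 TPM in ME cells (log2 fold change -0.58, SE 0.0827, adjusted p = 0.00783). Tap1, a subunit of the peptide transporter that loads class I molecules, fell to 45.3, 57.4 and 49.8 TPM in L28BME cells, against 65.97, 67.3 and 69.6 TPM in ME cells (log2 fold change -0.41, SE 0.0877, adjusted p = 0.0296). H2-D1, a class I heavy chain, was at 305, 298 and 309 TPM in L28BME cells, against 345, 343 and 360.1 TPM in ME cells (log2 fold change -0.20, adjusted p = 0.0109), and Ifngr2, a chain of the interferon gamma receptor, at 20.97, 20.3 and 21.8 TPM in L28BME cells, against 25.2, 24.4 and 26.3 TPM in ME cells (log2 fold change -0.26, adjusted p = 0.03). None of these 4 genes overlapped between groups. Tapbp, which helps to load class I molecules and is named after its values were seen, was at 75.6, 45.9 and 51.3 TPM in L28BME cells, against 42.4, 41.8 and 43.3 TPM in ME cells, with each L28BME library above each ME library, and was not called (log2 fold change 0.40, adjusted p = 0.199). With 1 library left out, Nlrc5 and H2-D1 were called each time, Tap1 was called only without L28BME replicate 2 (adjusted p up to 0.0922 without another), and Ifngr2 was called in none of the 6 fits (0.0568 to 0.0926).

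Psmb9 and Tap1 are read in opposite directions from the interval printed above. Psmb9 was not called while Tap1 fell. The log2 ratio of Psmb9 to Tap1 was 0.20, -0.22 and 0.12 in L28BME libraries, against -0.32, -0.42 and -0.31 in ME libraries. The ratio did not overlap between groups and differed by 0.38, with the smallest p that 3 against 3 allows (two-sided exact permutation p = 0.1, a comparison chosen after the values were seen). GENCODE models of the genes share exonic bases on opposite strands, and whether the authors' quantification used strand is not given in the sources used here. Psmb7 shares exonic bases in the same way with Nek6, at 14.01, 13.4 and 12.7 TPM in L28BME cells, against 26.6, 14.8 and 18.05 TPM in ME cells. Psmd13 shares them with Sirt3, at 49.6 to 54.5 TPM in L28BME cells, against 58.4 to 60.8 TPM in ME cells. Psmc3ip shares them with Mlx, at 50.6 to 60.3 TPM in L28BME cells, against 52.0 to 58.4 TPM in ME cells, above Psmc3ip itself. The levels of these members are uncertain in the same way. With Psmb9 and Tap1 summed, the log2 fold change was -0.23 and limma called the sum lower (adjusted p = 0.0285). The sum holds Tap1, which was called on its own, so it does not show a change of Psmb9.

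**Figure D5:**
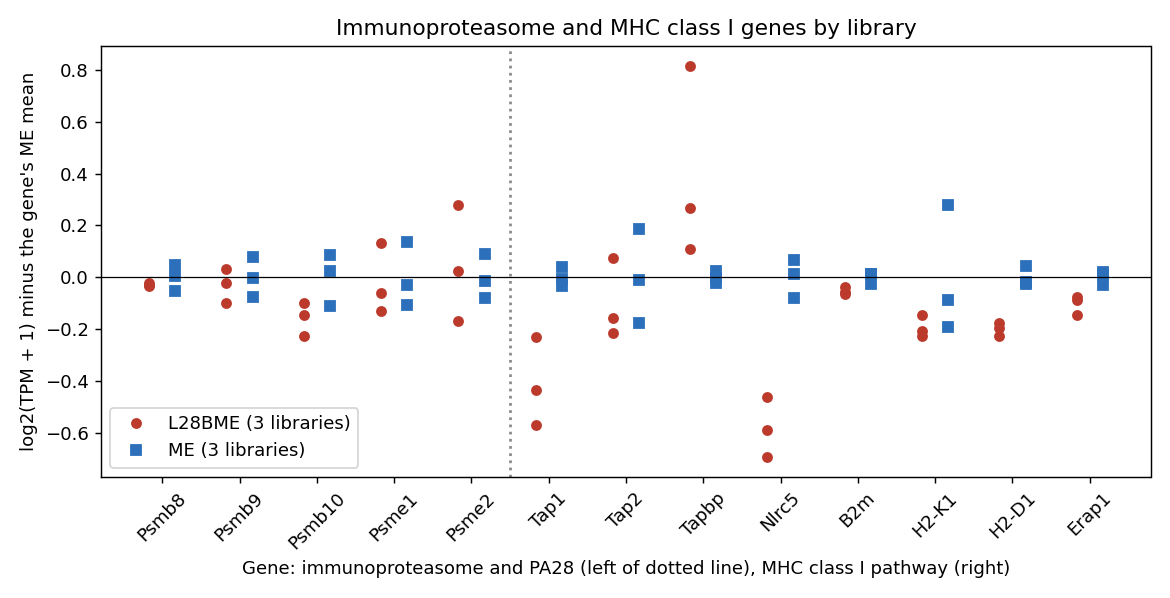
Log2(TPM + 1) of immunoproteasome and PA28 genes, left of the dotted line, and of MHC class I pathway genes, right of it, in each library, as the difference from the mean of the ME libraries, with L28BME left of ME for each gene. The L28BME points of Nlrc5, Tap1 and H2-D1 lie below all their ME points, while those of Psmb8 and Psmb9 overlap theirs.

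Other genes that feed or regulate the proteasome were taken from a list of 32, of which 31 were in the table and 30 were tested. Of these, 3 rose and 2 fell in L28BME cells, and the median log2 fold change was -0.02. These counts stand beside 8.28% of all genes called higher and 6.60% lower, 14.9% in all, near the share in this list. Among those that rose were Rad23b, a shuttle factor that carries ubiquitinated proteins to the 19S cap, and Uba6, a ubiquitin-activating enzyme. Rad23b was at 238, 237 and 231 TPM in L28BME cells, against 204, 200.1 and 206 TPM in ME cells (log2 fold change 0.21, SE 0.0282, adjusted p = 0.00656). Uba6 was at 22.1, 20.8 and 21.7 TPM in L28BME cells, against 18.5, 17.7 and 17.4 TPM in ME cells (log2 fold change 0.26, adjusted p = 0.0291). For both genes, each L28BME library stood above each ME library. With 1 library left out, Rad23b was called each time and Uba6 in none of the 6 fits (0.054 to 0.0912).

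Vcp, the p97 ATPase that pulls ubiquitinated proteins out of complexes and membranes, fell. It was at 355, 357 and 339.8 TPM in L28BME cells, against 416, 409 and 404 TPM in ME cells (log2 fold change -0.22, SE 0.0304, adjusted p = 0.0067). Nfe2l2 (NRF2), a transcription factor of the antioxidant response, also fell, to 83.5, 84.2 and 85.7 TPM in L28BME cells, against 96.8, 96.7 and 95.4 TPM in ME cells (log2 fold change -0.19, SE 0.0308, adjusted p = 0.013). Vcp was called with any 1 library left out, and Nfe2l2 was lost without ME replicate 2 (adjusted p = 0.0523). Nfe2l1 (NRF1), the factor known for raising proteasome subunit genes when proteasome activity is short, was at 41.9, 93.5 and 34.1 TPM in L28BME cells, against 29.4, 30.3 and 35.1 TPM in ME cells. L28BME replicate 2 stood apart from the other 5 libraries for this gene, and it was not called (adjusted p = 0.267). Sem1, the small 19S subunit whose symbol lies outside the family name, was at 230.1, 233 and 236 TPM in L28BME cells, against 233, 245 and 242 TPM in ME cells, and Adrm1 (Rpn13), a ubiquitin receptor of the cap, at 75.1, 75.1 and 79.98 TPM in L28BME cells, against 76.3, 77.3 and 85.2 TPM in ME cells. Pomp, the maturation factor of the core, was at 162, 150.2 and 152 TPM in L28BME cells, against 138, 142 and 153 TPM in ME cells. These 3 overlapped between groups and were not called.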

How the data were processed

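RNA of 3 L28BME and 3 ME libraries of sorted, cultured mouse GMLPs was sequenced. Per the labels' protocols, libraries were TruSeq Stranded mRNA, from RNA isolated with a Norgen kit made for single cells. The tools that the submitters' processing notes name are bcl2fastq, HISAT2, StringTie and DESeq2, with GRCm38, without versions or a statement on strand. The authors deposited TPM per gene and library, and the percent GC of each gene, which was used for 1 alternative only.

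Of 60496 entries, 431 IDs were repeated, 0 of them with values on more than 1 entry; each ID was used once, by ID. Psme2 was the repeated member. Genes with at least 1 TPM in at least 3 of the 6 libraries were tested on log2(TPM + 1) by limma (3.58.1, R 4.3.3) with the variance trended on level, two-sided, and adjusted by the Benjamini-Hochberg method over 13348 genes. The fold changes are on the log2(TPM + 1) scale, which understates those of low genes. The fit was also run on normal noise simulated with its own estimated variances, which cannot show how well it suits these TPM. Ratios of catalytic pairs were compared by exact permutation tests with scipy 1.17.1. Positions came from GENCODE for GRCm38, upstream sequences from RefSeq, and near-identical copies from BLAST 2.17.0 at 95% identity over at least 200 bases.

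The members and the gene lists were chosen with earlier results of these data known. Every member is named, and some genes of the other lists are counted but not reported here; called members and the catalytic pairs have full statistics, and from each other list up to 6 called genes with the smallest p are named, plus genes singled out for their role after the values were seen (Nfe2l1, Sem1, Adrm1, Pomp and those in the closing observations). Alternatives were the pseudocount, the filter, 3 scalings, the gene set, the trend, robust variances, a minimum change, a replicate block, removal of a GC trend, a shorter promoter window and each library left out. Sums with overlapping genes, sums with pseudogene copies and the ratio of Psmb9 to Tap1 were added after seeing the data.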

Additional observations from a re-analysis of the deposited data

How the results depend on the processing

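Of the fold changes of single proteasome genes under each alternative, 961 kept their direction and side of the threshold, 26 lost a call and 4 gained one. A further 43 changed sign, all of genes not called there or in the report. The count of proteasome genes called lower (3 as reported) was 1 with no filter on low values, 0 without the intensity trend, 0 when a change above 1.2-fold was required, and 0 to 2 with 1 library left out. The count called higher (0 as reported) was 1 with quantile normalization and 1 with a GC trend removed (Psme3 in both), and 0 to 1 with 1 library left out (Psmd8). Psmd2 was called in 17 of 22 alternatives, Psme4 in 12 and Psmb3 in 11. Over all genes, the minimum change left 245 higher and 144 lower, and leaving out 1 library gave 617 to 693 higher and 461 to 582 lower. The main fit did not pair libraries by replicate number. Same-numbered libraries had deviations correlated at -0.032, -0.074 and -0.052, which cannot show whether any were handled together. A fit with the replicate number as a block called 548 higher and 400 lower over all genes, with 0 proteasome genes in either direction. The Psmb9 to Psmb6 ratio difference ran from -0.0292 (without ME replicate 2, reversed) to 0.0461. The ISRE count was 3 with a window from 150 bases before the start. The log2 fold change turned to -0.0067 for Psma1, -0.0055 for Psmb5 and -0.0057 for Psmd11 with TMM scaling, and to -0.0048, -0.0035 and -0.0037 for these genes with median-of-ratios scaling. With quantile normalization it turned to 0.0315 for Psma7, 0.0296 for Psmb4, -0.0015 for Psmb5, 0.0184 for Psmb7, 0.0068 for Psmc1, -0.0053 for Psmd11 and 0.0026 for Psmd14. With the GC trend removed it turned to -0.0042 for Psmb5 and 0.0014 for Psmb7, and with pseudogene copies summed to -0.0286 for Psmd11. With 1 library left out, 13 genes crossed 0: Psma1 (-0.0276 to 0.0142), Psma3 (-0.0605 to 0.0396), Psma7 (-0.0794 to 0.0186), Psmb1 (-0.012 to 0.0478), Psmb5 (-0.0141 to 0.0112), Psmb9 (-0.0676 to 0.0098), Psmc4 (-0.0733 to 0.1295), Psmd11 (-0.1395 to 0.0995), Psmd14 (-0.0437 to 0.0089), Psmd5 (-0.0655 to 0.2549), Psme1 (-0.0966 to 0.0465), Psme2 (-0.0725 to 0.1505) and Psmg4 (-0.0533 to 0.0938). The cause of these changes was not tested. Without counts, the part of sequencing depth in the spread of low genes such as Psma8 is unknown.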

Other observations

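Of the genes that encode ubiquitin itself, Ubb, a chain of ubiquitin units, was at 554, 560.3 and 581 TPM in L28BME cells, against 574, 570.3 and 583 TPM in ME cells. Rps27a, ubiquitin fused to a ribosomal protein of the small subunit, was at 490.1, 706 and 810.3 TPM in L28BME cells, against 1572, 473 and 475 TPM in ME cells. ME replicate 1 stood far above the other 5 libraries for Rps27a. The groups overlapped for both genes, and neither was called.

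Other genes of the pathway list, named after their values were seen, did not pass the limma test. Ecpas, which binds 26S proteasomes, was at 104, 101 and 101 TPM in L28BME cells, against 112, 111 and 109.6 TPM in ME cells (adjusted p = 0.0526), and Ube3c, a ubiquitin ligase found on proteasomes, at 41.5, 39.01 and 37.8 TPM in L28BME cells, against 43.8, 45 and 43.1 TPM in ME cells (adjusted p = 0.0974). Neither overlapped between groups. Akirin2, known for bringing proteasomes into the nucleus, was at 78.2, 75.8 and 74.7 TPM in L28BME cells, against 70.9, 68.6 and 70.8 TPM in ME cells, with each L28BME library above each ME library (adjusted p = 0.0828). Usp14, a deubiquitinase of the cap, was at 158, 165 and 156 TPM in L28BME cells, against 177, 159 and 154 TPM in ME cells (adjusted p = 0.778), and Uchl5, another, at 167, 179 and 168 TPM in L28BME cells, against 165, 176 and 169.6 TPM in ME cells (adjusted p = 0.917). Both overlapped between groups.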
